A study of Mus musculus with 4 samples.

Results

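Inflammatory monocytes were followed in the wire-injured mouse carotid artery with single-cell RNA-sequencing. The cells described here were selected on measured values, as barcodes with UMIs (unique molecular identifiers, which count RNA molecules) of the monocyte genes Ly6c2, Plac8 and Chil3 and of the monocyte-macrophage genes Csf1r, Cd68 and Fcgr1, and with little or no RNA of the genes that mark other leukocytes. In all, 240 of the 4343 quality-passing barcodes of the series met this rule. They were divided into 61 cells at day 3, 169 at day 7 and 10 at day 14 after injury, and none was found among the 249 quality-passing barcodes of the uninjured vessel. All mice were male C57BL/6 animals, 11 weeks old before injury, without a transgene or a drug. Wire injury strips the inner lining of the artery. Carotids of several mice were pooled for each time point, so a library holds several animals that cannot be separated, and vessels with a thrombus had been left out by the study. Each time point was 1 library. Differences between days were therefore not separated from differences between libraries, no test was possible, and every interval below is an exact 95% interval for counting error alone. UMIs of a cell are not independent of each other, so these intervals are too narrow wherever a few cells carry a gene.

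Classical monocytes are made in the bone marrow, carry the surface protein Ly6C and leave the marrow for the blood by way of the chemokine receptor Ccr2. They enter injured tissue within days, release cytokines such as interleukin 1 beta, and can become macrophages or take on features of dendritic cells. A second, patrolling type of monocyte has little Ly6C, depends on the nuclear receptor Nr4a1 and carries Cx3cr1. Interferon-gamma, made mainly by T cells and NK cells, acts on monocytes through transcription factors such as Irf1 and induces guanylate-binding proteins, the chemokine Cxcl9 and antigen presentation by MHC class II.

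The rule asked for at least 500 genes, at least 1000 UMIs and at most 10% mitochondrial UMIs. It further asked for at least 3 UMIs of Ly6c2, Plac8 and Chil3 together with at least 2 of these genes seen, and at least 2 UMIs of Csf1r, Cd68 and Fcgr1 together. C1qa, C1qb and C1qc had to stay under 0.1% of UMIs and S100a8 and S100a9 under 1%, Cd209a was allowed at most 1 UMI, and Siglech and the Cd3 genes none. These genes chose the cells, so their levels are given as a description. Just inside the limit, 1 cell at day 3 and 3 cells at day 7 had exactly 3 UMIs of the monocyte genes, and just outside it 4 barcodes at day 7 had 2 UMIs of 2 such genes. A larger number of barcodes met all other limits but showed only 1 of these genes, 39 at day 3, 78 at day 7 and 2 at day 14, and that gene was Plac8 in 34, 76 and 2 of them. Among barcodes that met all other limits, C1q genes kept out 41 at day 3, 37 at day 7 and 1 at day 14, and Cd209a kept out 11, 67 and 1.

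Among the genes outside the rule that separated the days, the interferon-gamma induced genes stood together, and the sequences before their transcription start are shown for 5 of them because these genes were higher together at day 7. The 250 bases before the RefSeq start (GRCm38.p6, matched by symbol, 10 of the 14 listed genes matched) were searched on both strands for 2 sets of letters. The first was GAAANNGAAA, the core of the element bound by interferon regulatory factors, and the second TTCNNNGAA, the core of the gamma-activated sequence. Bases in capitals mark matches, and no matched bases of the 2 motifs overlapped in these windows.
Gbp2, chr3:142620413-142620662, plus strand: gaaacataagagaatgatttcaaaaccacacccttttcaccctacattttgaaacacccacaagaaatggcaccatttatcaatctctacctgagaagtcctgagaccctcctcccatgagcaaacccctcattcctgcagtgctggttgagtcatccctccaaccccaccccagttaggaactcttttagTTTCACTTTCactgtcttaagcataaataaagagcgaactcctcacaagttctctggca
Gbp7, chr3:142530086-142530335, plus strand: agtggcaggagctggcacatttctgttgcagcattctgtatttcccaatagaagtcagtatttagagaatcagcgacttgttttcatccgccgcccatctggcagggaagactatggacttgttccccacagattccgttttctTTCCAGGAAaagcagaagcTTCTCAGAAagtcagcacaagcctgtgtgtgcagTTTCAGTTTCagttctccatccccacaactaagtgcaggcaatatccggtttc
Igtp, chr11:58199306-58199555, plus strand: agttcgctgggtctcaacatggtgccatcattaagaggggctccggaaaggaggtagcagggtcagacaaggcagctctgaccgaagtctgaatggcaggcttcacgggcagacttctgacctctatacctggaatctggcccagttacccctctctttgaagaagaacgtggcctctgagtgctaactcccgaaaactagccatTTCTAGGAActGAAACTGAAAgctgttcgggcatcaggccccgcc
Irf1, chr11:53769764-53770013, plus strand: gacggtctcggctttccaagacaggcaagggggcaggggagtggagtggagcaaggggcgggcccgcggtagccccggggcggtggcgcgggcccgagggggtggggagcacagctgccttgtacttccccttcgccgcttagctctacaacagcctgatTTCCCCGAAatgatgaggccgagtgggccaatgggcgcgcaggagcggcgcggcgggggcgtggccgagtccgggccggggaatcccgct
Cxcl9, chr5:92328080-92328329, minus strand: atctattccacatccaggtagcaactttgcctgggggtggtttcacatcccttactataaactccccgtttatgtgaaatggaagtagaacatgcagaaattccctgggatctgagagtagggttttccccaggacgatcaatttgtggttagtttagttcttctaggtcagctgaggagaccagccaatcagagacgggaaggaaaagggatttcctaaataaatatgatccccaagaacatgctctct
The first motif was present before 7 of the 10 genes (70.0%) and before 936 of 27025 genes of the whole reference (3.46%). The second was present before 5 of the 10 and before 8.13% of all genes. Both were present before 3 of the 10 genes and before 0.459% of all genes. Gbp7 and Igtp held both motifs, Gbp2 held the first alone and Irf1 the second alone, whereas the letters of neither were found in the window of Cxcl9. For comparison, the first motif was found before 9 of 16 type I interferon-stimulated genes and 1 of 6 MHC class II pathway genes, and the second before 2 of 16 and 1 of 6. A match describes the sequence and says nothing of binding in these cells.

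The share of the monocytes among quality-passing barcodes was highest at day 7. They made up 5.10% of such barcodes at day 3 (95% interval 3.92 to 6.50) and 8.37% at day 7 (7.20 to 9.67). The share was 1.14% at day 14 (0.546 to 2.08), while 0 of 249 barcodes at day 0 allows a share of up to 1.20% by the limit of 3 barcodes used here for a count of 0 (exact upper bound 1.47%). The share at day 7 was 1.64 times that at day 3 (1.22 to 2.24), and at day 14 it was 0.136 times that at day 7 (0.0639 to 0.256). The order was the same among barcodes with at least 2 UMIs of Csf1r, Cd68 and Fcgr1, of which the monocytes made up 10.8%, 16.1% and 6.45%. The UMI limits of the rule select deeper barcodes, and the barcodes of the 3 libraries had median depths of 7193.5, 9040.5 and 13742.5 UMIs. When every barcode was thinned to 1000 UMIs before the rule was applied, the shares were 0.669%, 1.19% and 0.114%, in the same order. These shares rested on only 8, 24 and 1 barcodes and have no interval here, so they do not establish an excess of day 7 over day 3. The size of the excess of day 7 over day 3 depended on the setting. With at least 1000 genes and at most 5% mitochondrial UMIs the shares were 3.48%, 9.19% and 1.25% (28, 123 and 9 cells). With at least 6 UMIs and all 3 monocyte genes seen, the shares were 2.17%, 2.48% and 0.341% (26, 50 and 3 cells). Without cells with a UMI of the dendritic cell genes Cd209a, Flt3 or Clec10a they were 4.26%, 5.50% and 0.682% (51, 111 and 6 cells).

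**Figure D1:**
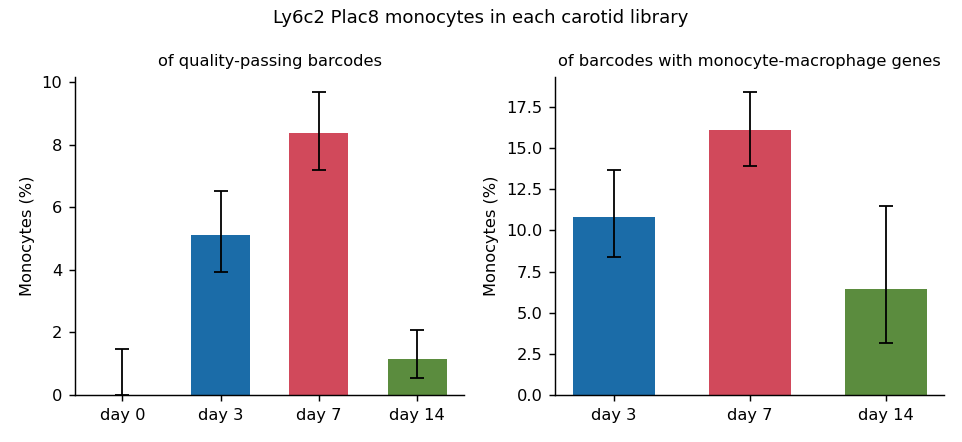
Share of Ly6c2 Plac8 monocytes in each library, in percent of quality-passing barcodes (left) and of barcodes with at least 2 UMIs of Csf1r, Cd68 and Fcgr1 (right; day 0, with 3 such barcodes, is not drawn). Bars are the shares of 1 library each and lines are exact 95% binomial intervals; day 7 is highest in both panels, at 8.37% and 16.1%.

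The monocytes had median depths of 7624, 8979 and 10216.5 UMIs and median numbers of 2353, 2528 and 2611.5 genes at days 3, 7 and 14. Their median mitochondrial share was 5.17%, 3.91% and 2.19%, against 2.97%, 3.83% and 2.46% of all quality-passing barcodes, so the day 3 monocytes lay above their library. Some cell barcodes occurred in 2 libraries, 152 in days 0 and 3, 64 in days 7 and 14 and 1 in days 3 and 7. None of them belonged to a monocyte. Among the cells used for comparison below, 7 C1q-high and 2 Cd209a-positive cells of day 7 and 1 C1q-high cell of day 14 had such a barcode, as did 35 of 143, 19 of 173 and 5 of 512 of the stromal cells that serve as background. Of the barcodes with the highest doublet scores, 2 were monocytes of day 3 and none of days 7 or 14.

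Markers of lymphocytes and mast cells had few UMIs, whereas those of macrophages and dendritic cells were present. The 7 T cell markers were at 0 at days 3 and 14, and 7 UMIs of 4 of them were found at day 7, with the Cd3 genes at 0 by rule. All 5 markers of mast cells and basophils were at 0 on each day. Of the 7 neutrophil markers 6, 4 and 3 were seen, with 176, 142 and 15 UMIs in 30, 92 and 8 cells, although the rule limits S100a8 and S100a9 among them. They summed to 338, 90.7 and 159 CPM (UMIs per 1000000 UMIs of the cells), against 71.5 and 47.2 CPM in C1q-high cells at days 3 and 7. Of the 176 UMIs at day 3, 134 came from 1 cell, and Ly6g was at 0 on each day. The 6 NK cell markers summed to 3, 67 and 0 UMIs, of which 53 at day 7 came from 1 cell, and the 5 B cell markers to 4, 46 and 1 UMIs, of which 39 at day 7 came from 1 cell. The 7 fibroblast markers summed to 400, 912 and 740 CPM in the monocytes against 31565, 58503 and 76561 CPM in stromal cells of the same libraries (barcodes with at least 5 UMIs of Col1a1, Col3a1 and Dcn and none of Ptprc or of the monocyte-macrophage genes). The 7 markers of C1q-high macrophages summed to 3096, 2440 and 1459 CPM (1612, 3821 and 138 UMIs) and were seen in 56, 162 and 8 cells, against 25155, 28610 and 38666 CPM in C1q-high cells, although the rule limits the C1q genes among them. The 7 markers of Cd209a dendritic cells summed to 4733, 10315 and 4051 CPM, against 30324, 26141 and 24230 CPM in Cd209a-positive cells and 4165, 12358 and 11513 CPM in C1q-high cells. Of the sum in the monocytes, 95.1%, 91.6% and 94.5% was the MHC class II gene Cd74, and the other 6 markers gave 232, 870 and 222 CPM, against 240, 287 and 97.2 CPM in C1q-high cells. Haemoglobin at day 3 was nearly confined to a single barcode, with 2820 of the 2837 UMIs of the 4 haemoglobin genes.

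The marker genes were checked first. Levels are given as CPM of the UMIs summed over the monocytes of a library. Ly6c2 (ENSMUSG00000022584), which encodes a Ly6C protein, was at 348, 535 and 867 CPM at days 3, 7 and 14 and was seen in 41 of 61, 139 of 169 and 8 of 10 cells. The day 14 level rested mostly on 1 cell with 63.4% of the UMIs, and the median cell was at 202, 289 and 252 CPM, so the cells of the 3 days overlapped widely. Its close paralog Ly6c1 had 2, 5 and 0 UMIs in the monocytes, against 224, 204 and 235 CPM in the stromal cells (312, 207 and 234 CPM without shared barcodes). The stromal cells had 1, 1 and 2 UMIs of Ly6c2.

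Plac8 (ENSMUSG00000029322), a small cysteine-rich protein of myeloid cells, was the most abundant of the 3 rule genes at 2065, 3345 and 4019 CPM. It also gave 254, 152 and 139 CPM in the stromal cells (217, 120 and 139 CPM without shared barcodes), in which Ly6c2 and Chil3 were each under 1 CPM. Chil3 (ENSMUSG00000040809), a chitinase-like secreted protein of marrow-derived monocytes, was the marker that differed most between days, at 770, 294 and 486 CPM. The ratio of day 7 to day 3 was 0.382 (0.334 to 0.438). Chil3 was seen in 47 of 61, 83 of 169 and 5 of 10 cells, and in 41.0%, 21.9% and 30.0% of cells thinned to 1000 UMIs, against 0% of thinned stromal cells on each day. Cells at day 7 thus more often entered through Ly6c2 and Plac8, and fewer of them showed all 3 genes (51 of 169, against 27 of 61 at day 3). Ccr2 (ENSMUSG00000049103), which the rule did not use, was seen in 60 of 61, 163 of 169 and 10 of 10 cells, at 1016, 793 and 952 CPM. After thinning it was seen in 60.7% and 47.3% of the monocytes of days 3 and 7 and in 1.40% and 2.31% of stromal cells, whose median depths before thinning were 13847 and 10586 UMIs. Ccr2 was lower but also present in C1q-high cells, at 837, 541 and 426 CPM, and in Cd209a-positive cells, at 758, 498 and 383 CPM. It was thus not particular to the monocytes among the myeloid cells. The label of the cells as Ccr2-bearing monocytes therefore rested mainly on the genes of the rule. UMIs of dendritic cell genes were found in part of the cells, as given below.

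**Figure D2:**
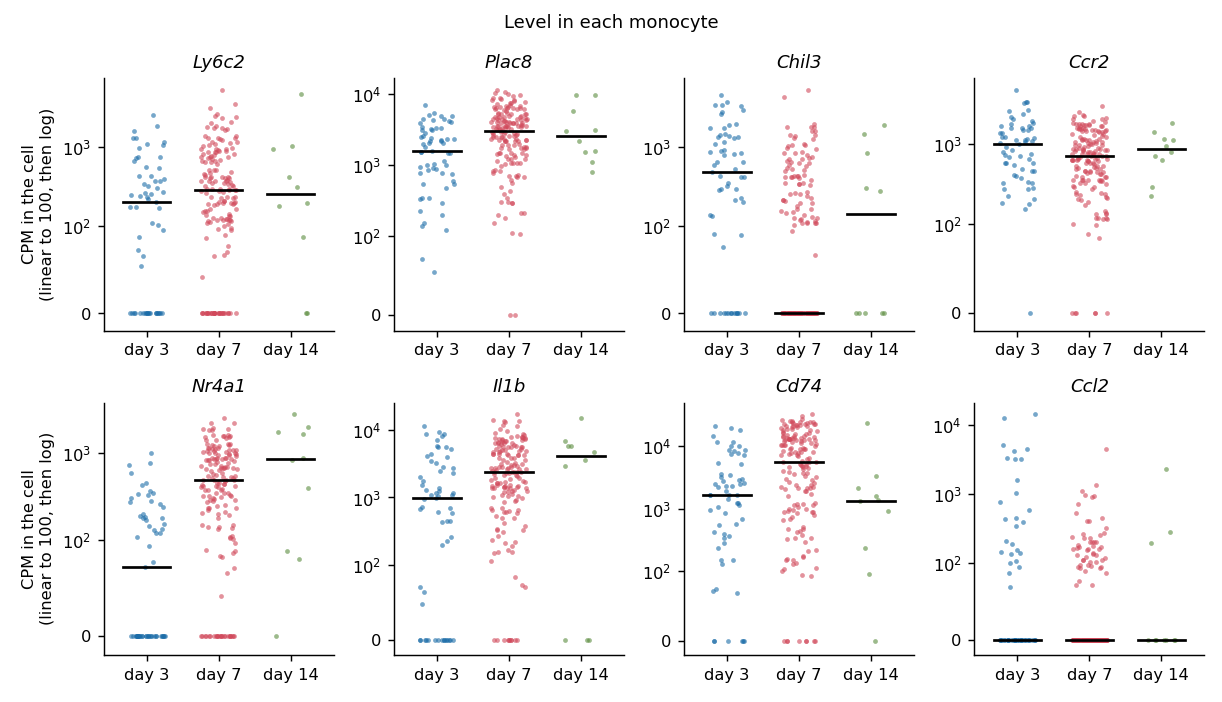
Level of 8 genes in each of the 240 monocytes, in CPM of the cell on an axis that is linear up to 100 and logarithmic above, for days 3, 7 and 14 (61, 169 and 10 cells). Points are cells and lines are medians; Chil3 has a median of 0 at day 7, Nr4a1 medians of 71.8, 489 and 850 CPM, and the cells of the days overlap for every gene.

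The following comparisons describe the day 7 and the day 14 monocytes relative to those of day 3. Both use the same day 3 cells and are not independent of each other. Of 7281 genes with at least 20 UMIs over days 3 and 7, 444 (6.10%) were at least 2-fold higher at day 7 and 324 (4.45%) at least 2-fold lower, 10.5% in either direction. Of 4042 such genes for day 14, 275 (6.80%) were at least 2-fold higher and 570 (14.1%) at least 2-fold lower, 20.9% in all. The median log2 ratio over all genes tested was -0.04 for day 7 and -0.08 for day 14. Lists of genes were described by the number of genes past 2-fold and by their median, with an interval given by the medians of the genes' lower and upper bounds.

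Interferon-gamma induced genes were higher at day 7 than at day 3. Of 14 genes, 13 had enough UMIs to be tested and 12 of these were at least 2-fold higher, against 6.10% of all genes. Of the 13, 9 had fewer than 20 UMIs at day 3 and passed the minimum only through day 7, where they were high, so the count is a description. Of the other 4 genes 3 were at least 2-fold higher, against 1.90% of all genes with at least 20 UMIs at day 3. The median log2 ratio of the 13 was 1.91 (0.81 to 2.95), with 2 genes at 0 UMIs at day 3 set to a floor of 3 UMIs. Gbp2, a guanylate-binding protein that acts against intracellular microbes, had 6 UMIs in 5 cells at day 3, 220 in 60 cells at day 7 and 16 in 3 cells at day 14, or 11.5, 140 and 169 CPM. Its ratio of day 7 to day 3 was 12.2 (5.51 to 33.6). The top cell held 13.6% of the day 7 UMIs, so the level was spread over many cells. In cells thinned to 1000 UMIs Gbp2 was seen in 0%, 10.7% and 10.0% of the monocytes. Stromal cells also carried Gbp2, at 44.8, 91.9 and 27.2 CPM (31.6, 62.3 and 27.3 CPM without shared barcodes).

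Cxcl9, a chemokine that attracts T cells through Cxcr3, was at 0 UMIs in the 61 cells of day 3, at 410 UMIs in 15 of 169 cells of day 7 (262 CPM) and at 5 UMIs in 2 of 10 cells of day 14 (52.9 CPM). It was at least 45.4-fold higher at day 7 than at day 3, and at least 34.0-fold without the top cell, which held 25.1% of the UMIs. The gene was thus high in a minority of the day 7 cells. Of these 15 cells, 12 (80.0%) also had a UMI of Gbp2, against 48 (31.2%) of the other 154, whose median depth was lower (8894 against 11816 UMIs).

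The transcription factor gene Irf1 was spread over most cells of days 7 and 14. It was at 82.6, 184 and 169 CPM and seen in 24, 101 and 8 cells, with a ratio of 2.23 (1.61 to 3.14). The feedback inhibitor Socs1 had 3, 57 and 0 UMIs. Among the other guanylate-binding proteins the ratios at day 7 were 3.75 for Gbp3 (2.02 to 7.70), 5.43 for Gbp4 (1.75 to 27.2), 5.32 for Gbp5 (1.71 to 26.7) and 2.56 for Gbp7 (1.51 to 4.61). The related GTPases Igtp and Irgm1 had ratios of 2.15 (1.28 to 3.83) and 1.90 (1.25 to 2.97), and Irgm1 was the only listed gene tested that missed 2-fold. Iigp1 had 0, 52 and 0 UMIs, and Nos2, which encodes the inducible nitric oxide synthase, was at 0 on each day. At day 14 only 6 genes of the list could be tested, and 3 of them were at least 2-fold higher than at day 3, against 6.80% of all genes (median 0.96, interval -0.02 to 1.80). Of the 4 with at least 20 UMIs at day 3, 2 were at least 2-fold higher, against 5.14% of all such genes. Ifng itself was at 0 UMIs in the monocytes of each day, whereas its receptor gene Ifngr1 was at 353, 384 and 254 CPM.

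The same contrast in other myeloid cells of these libraries is given for scale. For comparison, 2 groups were formed with the same filters on quality, T cells and neutrophils and the same minimum of Csf1r, Cd68 and Fcgr1. C1q-high cells had at least 0.2% C1q UMIs. Cd209a-positive cells had at least 2 UMIs of Cd209a and under 0.1% C1q UMIs. C1q-high cells numbered 220, 352 and 103 on the 3 days, and Cd209a-positive cells 94, 203 and 9. Between days 3 and 7 the median of the interferon-gamma induced genes was 0.08 in C1q-high cells (-0.23 to 0.82; 6 of 13 genes at least 2-fold higher, against 5.26% of all genes tested there) and 1.37 in Cd209a-positive cells (0.83 to 2.09; 10 of 13, against 6.43%). Whether these medians differ was not tested, since each rests on 1 library per day.

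**Figure D3:**
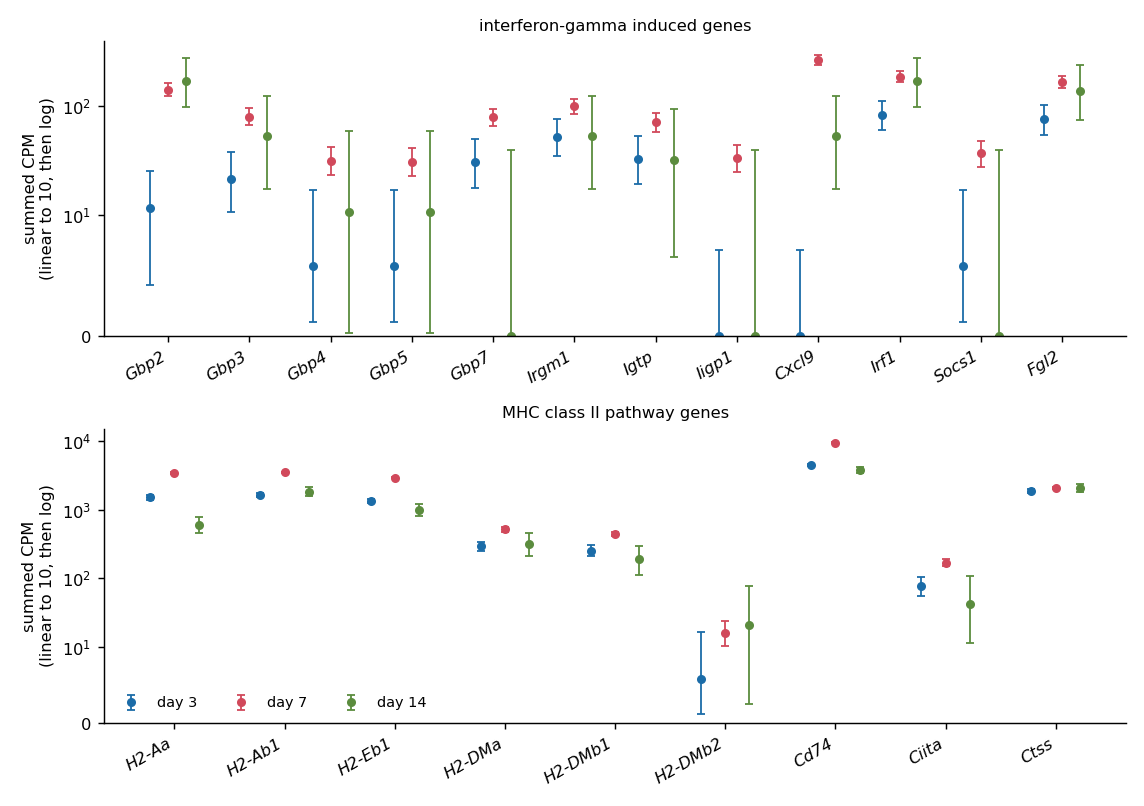
Summed CPM of 12 interferon-gamma induced genes (top) and 9 MHC class II pathway genes (bottom) in monocytes of days 3, 7 and 14, on an axis that is linear up to 10 and logarithmic above. Points are the level of 1 library and lines exact 95% Poisson intervals; day 7 is above day 3 for every gene, from 0 to 262 CPM for Cxcl9.

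MHC class II genes, whose products present peptides to CD4 T cells, were also higher at day 7 and not at day 14. At day 7, 6 of 9 were at least 2-fold higher, against 6.10% of all genes, and none was lower (median 1.07, interval 0.66 to 1.17). Of the 9, 1 had fewer than 20 UMIs at day 3 and passed the minimum only through day 7, where it was high. Of the other 8 genes 5 were at least 2-fold higher, against 1.90% of all genes with at least 20 UMIs at day 3. Cd74, the invariant chain, was at 4500, 9444 and 3829 CPM, and its ratio at day 7 was 2.1 (2.01 to 2.19). H2-Aa was at 1512, 3461 and 603 CPM, with a day 7 ratio of 2.29 (2.12 to 2.47) and a day 14 ratio of 0.399 (0.299 to 0.522), or 0.0819 (0.0391 to 0.152) without the top cells. Ciita, the transcription factor that controls the class II genes, was at 76.8, 170 and 42.3 CPM, with a ratio of 2.21 at day 7 (1.58 to 3.17). The cells varied over a wide range. Cd74 ran from 0 to 32258 CPM over the cells of day 7, with a median of 5611 CPM, against 1665 CPM at day 3 and 1337 CPM at day 14. At day 14 a single cell held 91.4% of the H2-Ab1 UMIs and 72.1% of those of Cd74.

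UMIs of genes of type 2 dendritic cells were found in part of the monocytes. A UMI of Cd209a, Flt3 or Clec10a was seen in 10 of 61, 58 of 169 and 4 of 10 cells (16.4%, 34.3% and 40.0%), against 35.0%, 31.8% and 17.5% of C1q-high cells (median depths 13582, 13368.5 and 9813 UMIs) and 4.90%, 8.09% and 0.781% of stromal cells. After thinning to 1000 UMIs the share of monocytes was 1.64% at day 3 and 7.69% at day 7 (4.16 to 12.8), with 0 of 10 cells at day 14, against 4.55% and 3.69% (1.98 to 6.23) of C1q-high cells and 0% and 1.16% of stromal cells at days 3 and 7. The day 3 share of the monocytes rested on 1 of 61 cells. The intervals of monocytes and C1q-high cells overlapped at day 3 as well as at day 7, so no difference is drawn on either day. The rule allows 1 Cd209a UMI, which 3, 15 and 1 of the monocytes had, and does not use Flt3 or Clec10a. Clec10a, a lectin of such dendritic cells, was at 17.3, 94.5 and 52.9 CPM (9, 148 and 5 UMIs), with a ratio of 5.47 at day 7 (2.80 to 12.2), while C1q-high cells had 47.0, 32.7 and 16.3 CPM. Among cells with at least 6 UMIs and all 3 rule genes seen, this ratio was 0.804, so its direction depends on the rule. Ifitm1, an interferon-induced membrane protein that is also among the dendritic cell markers used here, was at 127, 527 and 74.0 CPM, with a ratio of 4.16 at day 7 (3.24 to 5.43). Without the cells with such a UMI, the median of the MHC class II genes was 0.63 instead of 1.07 at day 7 and -1.92 at day 14, and the day 7 share of monocytes was 5.50%. At day 7 Clec10a was seen in 13 of the 83 cells with Chil3 (15.7%) and in 31 of the 86 cells without it (36.0%), with median depths of 8366 and 10007 UMIs. The part of dendritic cells in the remaining difference was not tested.

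Most type I interferon-stimulated genes lay above day 3 at day 7, with the main settings mostly within 2-fold. Of 20 genes tested at day 7, 17 were above day 3, 2 at least 2-fold (background 6.10%) and 1 at least 2-fold lower, with a median of 0.37 (0.09 to 0.90). The 2 genes at least 2-fold higher had fewer than 20 UMIs at day 3 and passed the minimum only through day 7. Of the 17 genes with at least 20 UMIs at day 3, none was at least 2-fold higher, against 1.90% of all such genes. Without the top cells, day 7 ratios of Cxcl10, Ifit1, Ifit3, Isg15, Ifi213 and Usp18 were 2.75, 2.74, 2.58, 2.15, 2.06 and 2.99. The other listed genes stayed under 2-fold. The counts past 2-fold thus depend on single cells. Isg15, a ubiquitin-like protein, was at 225, 395 and 444 CPM, and Ifit1, which binds viral RNA, had 17 UMIs in 7 cells, 130 in 25 cells and 0. Slfn4, a Schlafen family gene of myeloid cells, went the other way, at 229, 113 and 42.3 CPM, with a ratio of 0.495 at day 7 (0.390 to 0.629), or 0.651 without the top cells. At day 14 the median of the 17 genes tested was -0.18 (-0.84 to 0.82), and none was at least 2-fold higher. C1q-high cells had a median of -0.89 at day 7 (-1.02 to -0.78) for these genes and Cd209a-positive cells one of 0.62 (0.25 to 0.90).

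The inflammatory cytokines and chemokines were divided in direction. At day 7, 3 of 16 were at least 2-fold higher and 5 at least 2-fold lower (backgrounds 6.10% and 4.45%), with a median of 0.27 (-0.11 to 0.50) that was -0.04 under a stricter quality filter. Of the 3 higher genes 1 passed the minimum only through day 7. Of the 14 genes with at least 20 UMIs at day 3, 2 were at least 2-fold higher, against 1.90% of all such genes. Il1b was the most abundant, at 2345, 3366 and 4484 CPM in 46, 159 and 7 cells, and its day 7 ratio was 1.44 (1.35 to 1.53) and the day 14 ratio 1.91 (1.71 to 2.14). The interleukin 1 receptor antagonist Il1rn was at 88.4, 222 and 106 CPM, with a ratio of 2.51 at day 7 (1.84 to 3.49). Osm, the cytokine oncostatin M, was at 140, 292 and 391 CPM, with ratios of 2.09 (1.63 to 2.71) and 2.79 (1.83 to 4.20), the latter 1.86 without the top cells. All 3 genes were above their day 3 level on both later days, with intervals that left out 1 except for Il1rn at day 14.

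The chemokine genes that were lower at day 7 included ligands of Ccr2 and Ccr1. Ccl2, the main ligand of Ccr2, was at 809, 114 and 360 CPM in 27, 54 and 3 cells, with a ratio of 0.141 at day 7 (0.118 to 0.169) and of 0.135 without the top cells. At day 14 a single cell held 85.3% of its UMIs, so the level of that day is not read. Ccl7, also a Ccr2 ligand, was at 292, 13.4 and 0 CPM, but 73.7% of its day 3 UMIs came from 1 cell, without which the ratio was 0.133. Ccl6 was at 1429, 566 and 666 CPM and Ccl9 at 1058, 529 and 338 CPM, and both were seen in most cells of days 3 and 7. Lower levels at day 7 were not particular to the monocytes. In C1q-high cells the day 7 ratios of Ccl2, Ccl7, Ccl6 and Ccl9 were 0.513, 0.442, 0.130 and 0.305. In Cd209a-positive cells Ccl6 and Ccl9 had ratios of 0.296 and 0.629, whereas Ccl2 and Ccl7 had 1.13 and 1.66, with intervals that held 1. Of the day 3 cells with Ccl2, 10 of 27 had a UMI of Ccl7, against 1 of the other 34. Cxcl3, a neutrophil-attracting chemokine, had 34, 3 and 0 UMIs in 4, 3 and 0 cells. Ccl12 gave 92.1% and the neutrophil genes S100a8 and S100a9 gave 87.7% and 96.7% of their day 3 UMIs from 1 cell each, and no direction is drawn from them. The same holds for Ccl5, with 80.2% of the day 7 UMIs in 1 cell.

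**Figure D4:**
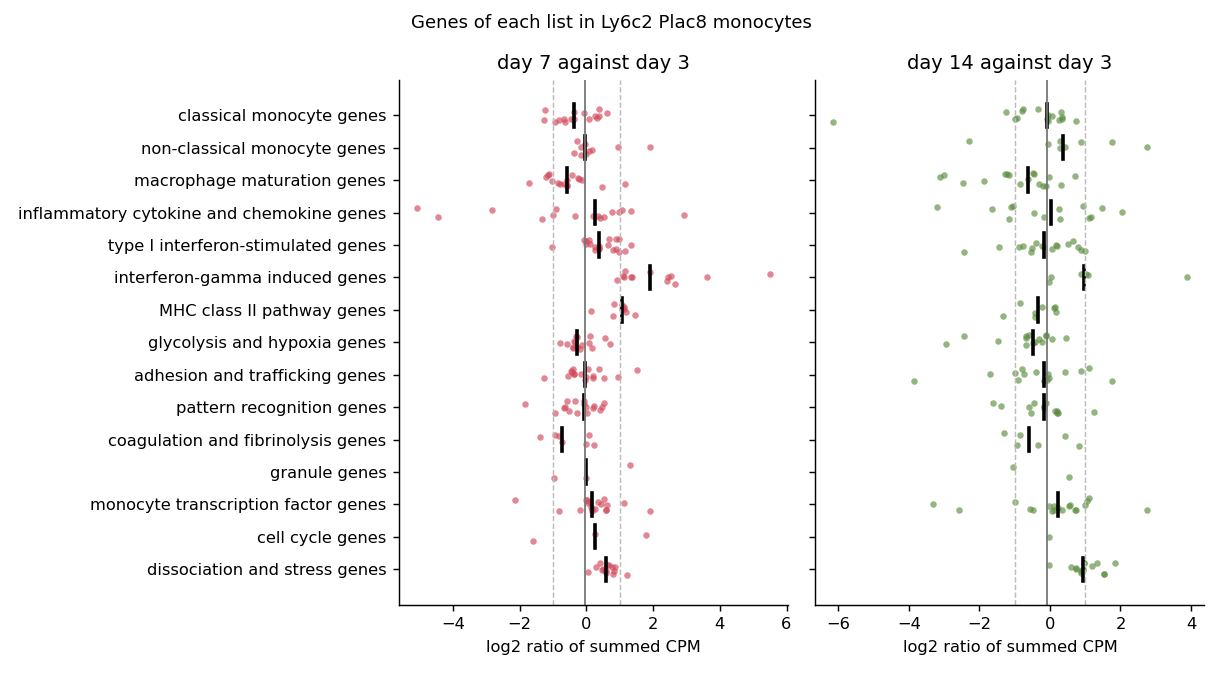
Log2 ratio of summed CPM of each tested gene of 15 lists in the monocytes, for day 7 (left) and day 14 (right) against day 3. Points are genes, short black lines are list medians, the grey line is the median of all genes tested (-0.04 and -0.08) and dashed lines mark 2-fold; the interferon-gamma induced genes have a median of 1.91 at day 7.

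Classical monocyte genes lay somewhat below day 3 as a list at day 7 and, with the main settings, with all genes at day 14. At day 7, 2 of 16 were at least 2-fold lower, against 4.45% of all genes, and none was at least 2-fold higher (median -0.36, interval -0.47 to -0.09). At day 14, 3 of 16 were at least 2-fold lower, against 14.1% of all genes, and the list median of -0.08 (-0.94 to 0.30) was that of all genes. Over the alternative settings this list median ran from -0.81 to -0.08. Vcan, the proteoglycan versican, was at 751, 317 and 10.6 CPM, that is 391, 497 and 1 UMIs in 42, 94 and 1 cells. Itgam, the integrin subunit CD11b, was at 572, 236 and 286 CPM, with a ratio of 0.412 at day 7 (0.352 to 0.481). S100a6 was at 4529, 2549 and 2633 CPM, and was as abundant in the stromal cells. Lysozyme (Lyz2) was at 14473, 15244 and 18233 CPM and was not past 2-fold on either day.

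Genes of the patrolling type of monocyte lay near all genes as a list at day 7 (median -0.03, interval -0.55 to 0.51). At day 14, 2 of 8 genes tested, Nr4a1 and Cx3cr1, were at least 2-fold higher (6.80% of all genes) and 1 at least 2-fold lower (14.1%), with a median of 0.36 whose interval held 0. Nr4a1 was at 159, 598 and 1079 CPM in 31, 145 and 9 cells, with a day 7 ratio of 3.75 (3.00 to 4.76) and a day 14 ratio of 6.77 (5.01 to 9.15). Nr4a1 was also higher at the later days in C1q-high cells, at 171, 338 and 444 CPM, and in Cd209a-positive cells, at 97.7, 218 and 660 CPM. The stromal cells of the same libraries had 242, 209 and 235 CPM, or 270, 253 and 235 CPM without shared barcodes. Cx3cr1 was at 111, 99.0 and 381 CPM in 17, 66 and 10 cells, so all 10 cells of day 14 had a UMI, and its day 14 ratio was 3.42 (2.19 to 5.27) with and 3.15 without the top cells. C1q-high cells had 224, 383 and 603 CPM of Cx3cr1 and Cd209a-positive cells 77.8, 103 and 71.0 CPM. Treml4 and Ace, other genes of this type, had 4 and 5 UMIs at day 14, and Cd300e none.

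Nr4a1 is also an immediate early gene, and the genes known to respond to tissue digestion were higher with it. All 15 genes of the dissociation and stress list were above day 3 at day 7 (median 0.60, interval 0.44 to 0.77), and 14 of 15 at day 14 (median 0.93, 0.59 to 1.46). At least 2-fold higher were 1 of 15 at day 7, near the 6.10% of all genes, and 5 of 15 at day 14, against 6.80%. Junb was at 1596, 2770 and 4611 CPM, Fos at 1464, 2068 and 4209 CPM and Dusp1, a phosphatase of the stress response, at 820, 1253 and 2930 CPM. The same list had medians of 1.10 at day 7 in C1q-high cells and 1.17 in Cd209a-positive cells, and 1.82 and 2.18 at day 14. In stromal cells 11 of the 15 genes were above day 3 on each later day, against 6041 of 11320 and 6374 of 12130 of all genes. Their medians were 0.19 and 0.45, against 0.03 and 0.04 for all genes. At least 2-fold higher were 0 of 15 at day 7 (6.19% of all genes) and 4 of 15 at day 14 (11.2%). Without shared barcodes 11 and 10 genes were above day 3, with medians of 0.43 and 0.44, and 2 and 4 were at least 2-fold higher (6.64% and 10.5% of all genes). In all stromal cells Junb was at 534, 732 and 1216 CPM and Fos at 857, 885 and 2181 CPM, whereas Dusp1 was at 418, 394 and 462 CPM. Further early-response genes among the largest ratios at day 14 were Tiparp (36.5, 166 and 571 CPM), Gadd45g (96.0, 242 and 941 CPM, with a day 14 ratio of 9.80, or 5.94 without the top cells), Nr4a3 (28.8, 99.0 and 190 CPM) and Id3 (88.4, 243 and 867 CPM, with 67.4% of the day 3 and 57.3% of the day 14 UMIs in 1 cell each). Id3 was also higher later in stromal cells, at 407, 952 and 1045 CPM. The part of digestion in these differences, and in that of Nr4a1, was not tested. The study's methods give 1 digestion procedure for all time points.

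Part of the macrophage maturation genes were lower at the later days. At day 7, 5 of 17 were at least 2-fold lower and 1 at least 2-fold higher (median -0.59, interval -1.13 to -0.12), and at day 14, 7 of 17 and 0, against backgrounds of 4.45% and 14.1% (median -0.61, interval -1.87 to 0.21). Spp1, encoding osteopontin, was at 350, 107 and 63.5 CPM, with a ratio of 0.305 at day 7 (0.246 to 0.378), while stromal cells had 818, 233 and 10.6 CPM (1104, 58.7 and 9.19 CPM without shared barcodes). The lysosomal protease gene Ctsd was at 351, 153 and 159 CPM, with a ratio of 0.436 (0.358 to 0.531). Mrc1, the mannose receptor, had 61, 84 and 0 UMIs. Fabp5, a fatty acid-binding protein, was the exception at 248, 558 and 402 CPM. Apoe was at 2551, 2124 and 1417 CPM, although stromal cells also had 200, 432 and 2035 CPM (295, 556 and 2039 CPM without shared barcodes). Pf4 had 95.4% of its day 7 UMIs in 1 cell.

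Outside this list, Fn1, encoding the matrix protein fibronectin, was at 1512, 283 and 497 CPM in 54, 111 and 8 cells. Its day 7 ratio was 0.187 (0.166 to 0.211) and the day 14 ratio 0.329 (0.240 to 0.442). Fn1 was also lower later in C1q-high cells, with ratios of 0.202 and 0.0143, and in Cd209a-positive cells, with 0.356 and 0.0767. Of 19 monocyte transcription factor genes, 15 were above day 3 at day 7, 2 of them (Nr4a1 and Bhlhe40) at least 2-fold, and 1 was at least 2-fold lower (6.10% and 4.45% of all genes), with a median of 0.17 (0.01 to 0.57). At day 14, 4 were at least 2-fold higher and 2 lower (6.80% and 14.1% of all genes). The Krüppel-like factor genes Klf2 (286, 295 and 613 CPM) and Klf4 (229, 342 and 476 CPM) were among the 4, but without the top cells their day 14 ratios were 1.58 (1.06 to 2.29) and 1.43 (0.892 to 2.22), under 2-fold. Maf, which is linked to macrophage identity, was at 528, 120 and 52.9 CPM in 42, 73 and 3 cells, with a ratio of 0.227 at day 7 (0.188 to 0.275). Zeb2 was at 1137, 647 and 772 CPM, and the lineage factor Spi1 was even, at 578, 568 and 561 CPM. Maf and Fn1 were thus lower without a matching difference in Spi1.

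Counts in the other lists at day 7 are read against the 10.5% of all genes that were past 2-fold in either direction. None of 16 glycolysis and hypoxia genes, 2 of 17 adhesion and trafficking genes, 1 of 17 pattern recognition genes and 1 of 7 coagulation genes were past 2-fold. Only 3 granule and 3 cell cycle genes could be tested, of which 1 and 2 were past it. In both lists the 1 gene at least 2-fold higher passed the minimum only through day 7. The glycolysis and hypoxia genes had a median of -0.29 whose interval held 0 (-0.55 to 0.08). Over the alternative settings given below it ran from -0.31 to -0.05. Gapdh was at 1469, 1195 and 920 CPM and Ldha, lactate dehydrogenase, at 380, 301 and 137 CPM. The adhesion genes past 2-fold were Pecam1, with 3, 26 and 0 UMIs, and Itgam, which was lower at day 7. Pecam1 passed the minimum only through day 7. Its ratio without the top cells was 3.66 (0.899 to 32.1), so no direction is drawn from it. At day 14 the chemokine receptor gene Cxcr4 was at 539 CPM, against 252 CPM at day 3, with a ratio of 1.90 without the top cells. The pattern recognition gene past 2-fold was Tlr4, the receptor of lipopolysaccharide, at 46.1, 12.8 and 31.7 CPM (24, 20 and 3 UMIs). The coagulation gene past 2-fold, F13a1, the A subunit of factor XIII, was at 419, 161 and 233 CPM, with a ratio of 0.384 at day 7 (0.319 to 0.463). The neutrophil granule genes Mpo, Elane, Ltf, Camp and Ngp were at 0 on each day.

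Outside the lists, several genes of low level were higher at day 7, when they were seen in a minority of the cells. Fam26f, Bambi, Slc15a2 and Klrd1 had few UMIs at day 3 and passed the UMI minimum only through day 7, where they were high. Their levels are therefore a description. Fam26f, which belongs to a family of channel-forming membrane proteins, had 5, 135 and 5 UMIs in 4 of 61, 41 of 169 and 3 of 10 cells. Bambi, a decoy receptor of the TGF-beta family, had 5, 135 and 2 UMIs in 4, 25 and 2 cells, and the ratio at day 7 was 8.98 for both genes (3.75 to 28.1). Stromal cells carried Bambi too, at 18.2, 28.2 and 27.2 CPM. The peptide transporter gene Slc15a2 had 4, 95 and 9 UMIs. Klrd1, a lectin of NK cells and part of the dendritic cell markers used here, had 1, 96 and 2 UMIs in 1, 17 and 1 cells, and 15 of the 17 cells at day 7 had no Chil3. In the other direction, Lrg1, a secreted leucine-rich glycoprotein, had 30 UMIs in 8 cells at day 3 and none later. Mmp19, a metalloproteinase, had 109 UMIs in 27 cells at day 3, 93 in 44 cells at day 7 and none at day 14, with a ratio of 0.284 at day 7 (0.213 to 0.378). Dab2, an endocytic adaptor, and Clec2d, a lectin, had 132 and 118 UMIs at day 3 and none in the 10 cells of day 14.

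Few monocytes showed genes of cell division. Mki67 had 0, 7 and 3 UMIs in 0, 6 and 1 cells and Top2a 13, 13 and 0 UMIs, 76.9% of those at day 3 in 1 cell. The 12 UMIs of Ccnb2 at day 14 all came from 1 cell, which the rule admitted. In comparison with C1q-high cells of the same library, the median log2 ratio of the 15 cell cycle genes was -3.13 at day 3 and -3.84 at day 7. At day 14, with 12 genes compared, it was -0.75, and 1 gene was at least 2-fold higher in the monocytes. A sum of 0 was set to the floor of 3 UMIs, the same sum that Mki67 had at day 14. The monocytes gave 94554 UMIs in all at day 14, against 1565911 at day 7, so the floor is a higher level at day 14. The day 14 median is therefore not read against those of days 3 and 7.

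Compared with the other myeloid cells of the same library, the monocytes differed first in the genes the rule used, from which nothing is read. As the rule set the cells apart on measured values, the genes below are also a description. Of 6281 genes with enough UMIs in all 3 libraries, 63 (1.00%) were at least 2-fold higher in the monocytes than in C1q-high cells on every day and 176 (2.80%) at least 2-fold lower. Ranked by the smallest of the 3 libraries' interval bounds, Mcemp1, a myeloid membrane protein, came first with ratios of 14.3, 13.9 and 26.3, followed by Itgal, the integrin subunit CD11a, with 8.74, 8.66 and 47.1 at days 3, 7 and 14. Ifitm6, an interferon-induced membrane protein family gene, varied more, with 4.21, 42.9 and 66.7. Thbs1, which encodes thrombospondin 1, was at 1571, 1546 and 635 CPM in the monocytes and at 370, 250 and 64.5 CPM in C1q-high cells, with 70.0% of the day 14 monocyte UMIs in 1 cell. Lower in the monocytes were the macrophage genes Fcrls (0.0599, 0.0328 and 0.0285), Ms4a7 (0.156, 0.0635 and 0.0259) and Apoe (0.221, 0.146 and 0.0636).

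Against Cd209a-positive cells, 80 of 1672 genes (4.78%) were at least 2-fold higher in the monocytes in all 3 libraries and 51 (3.05%) at least 2-fold lower. Higher were Thbs1 (45.3 and 20.4 at days 3 and 7, and at least 29.8 at day 14), the lectin receptor gene Clec4e, whose product senses mycobacteria and dead cells (15.9, 7.98 and at least 15.4), and Lyz2 (7.80, 5.61 and 65.9). Lower were the lectin gene Mgl2 (0.00944 and 0.0862 at days 3 and 7) and the class II genes H2-Eb1 (0.123, 0.332 and 0.0880) and H2-Ab1 (0.138, 0.350 and 0.168). For both class II genes the ratio was closest to 1 at day 7.

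**Figure D5:**
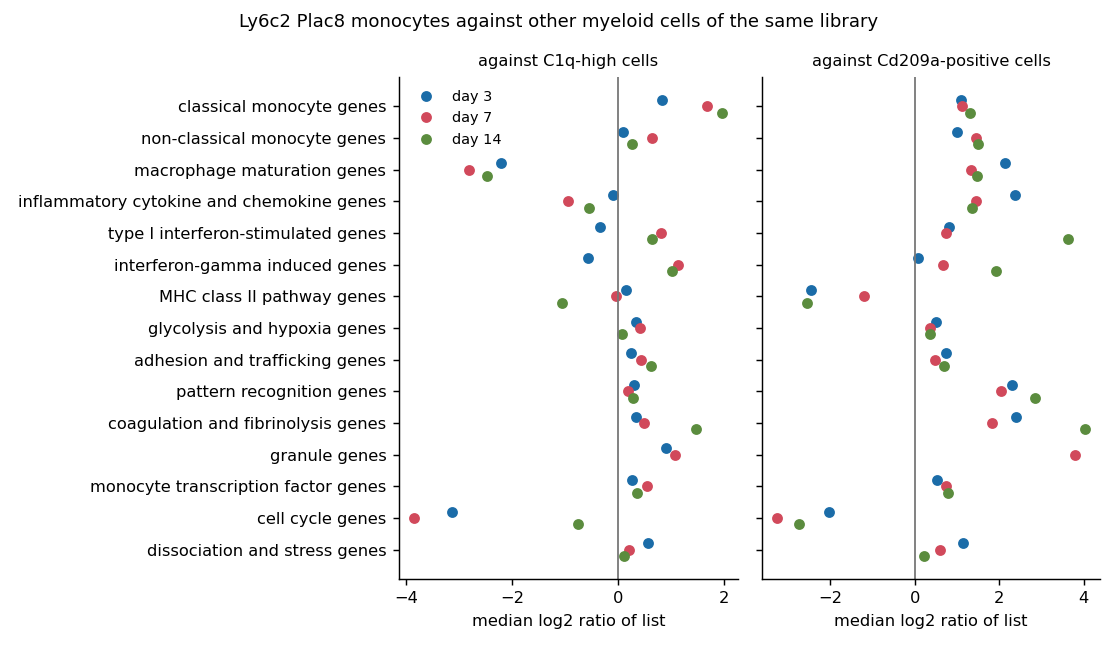
Median log2 ratio of each gene list in Ly6c2 Plac8 monocytes against C1q-high and Cd209a-positive cells of the same library; the horizontal axes differ in range. Points are list medians of days 3, 7 and 14; MHC class II genes lie at -2.45, -1.21 and -2.56 against Cd209a-positive cells.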

How the data were processed

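Single-cell libraries of days 0, 3, 7 and 14 were deposited as UMI counts per gene and barcode, made by the authors with Cell Ranger (3.0.2 in the file headers) from a droplet 3′ kit. The processing notes name a human build, so the mouse build counts as not given in the sources used here. The members, gene lists and measures were chosen with earlier results of these data known.

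Counts of the selected cells were summed per library and expressed as CPM (python 3.11.15). Ratios had no pseudocount, a sum of 0 was set to a floor of 3 UMIs, and genes needed 20 UMIs over both days. Intervals were exact (Clopper-Pearson for shares, Poisson for sums, conditional binomial for ratios). Shares of cells with a UMI were taken after thinning each cell to 1000 UMIs. Scrublet (scanpy 1.11.5) called only 1 and 2 doublets at days 3 and 7, so doublets were left in and an alternative removed the highest scores at 0.8% per 1000 barcodes. The scripts were tested on simulated data. A further limit of the rule, and the results of some genes, are not reported here. Genes were named by size of ratio (the 12 largest and smallest per day with at least 50 CPM on one day, the 10 largest and smallest against each group) or by UMIs within a list. Others, such as Ifng, Ly6c1 and genes with few UMIs, were added after their values were seen. Alternatives were a stricter quality filter, a stricter rule, doublet removal, thinning before the rule, another denominator, means of cells, other scalings, no low-count filter, 10 CPM added and leaving out the deepest 5% of cells. Leaving out cells with dendritic genes, shared barcodes (stromal cells included), haemoglobin or the top cell of each gene was added after seeing the data.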

Additional observations from a re-analysis of the deposited data

Results flagged for a closer look

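The type I interferon-stimulated genes had medians of opposite sign in 2 kinds of myeloid cells between days 3 and 7. Their median log2 ratio was 0.37 in the Ly6c2 Plac8 monocytes (0.09 to 0.90, 20 genes tested) and -0.89 in C1q-high cells (-1.02 to -0.78, 20 genes tested). This difference between cell groups was not tested, because each group has 1 library per day.

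The MHC class II pathway genes likewise had a median log2 ratio of 1.07 in the monocytes (0.66 to 1.17) and of -0.27 in Cd209a-positive cells (-0.30 to -0.18), with 9 genes tested in each. In C1q-high cells the median was 1.62 (1.59 to 1.71, 9 genes tested), so the monocytes were not alone in being higher at day 7. These differences between cell groups were not tested either. Without the monocytes that had a UMI of Cd209a, Flt3 or Clec10a, the median in the monocytes was 0.63.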

How the results depend on the processing

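The list medians are given as ranges over all alternatives. At day 7 the interferon-gamma induced genes kept medians of 1.37 to 2.35, the MHC class II genes of 0.63 to 1.29, the dissociation and stress genes of 0.59 to 0.79, the type I interferon-stimulated genes of 0.30 to 0.64 and the macrophage maturation genes of -0.99 to -0.40, so their signs held. At day 14 the interferon-gamma range was 0.23 to 1.52 and that of the MHC class II genes -2.61 to 0.10. No paired analysis was possible because each time point is 1 library. The 10 cells of day 14 set the limit on what that day can show, and genes under 20 UMIs were not compared.

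The stricter rule (6 UMIs, all 3 genes seen) gave shares of 2.17%, 2.48% and 0.341% for days 3, 7 and 14, thinning before the rule 0.669%, 1.19% and 0.114%, and the monocyte-macrophage denominator 10.8%, 16.1% and 6.45%. The stricter quality filter gave 3.48% at day 3 and 9.19% at day 7, and leaving out cells with dendritic genes 5.50% at day 7. At day 7 the count of genes at least 2-fold higher was 276 under the stricter rule, 758 without a low-count filter, 157 with 10 CPM added and 726 without top cells, and that of genes at least 2-fold lower 208, 3376 and 100 under the first 3 of these. At day 14 the higher genes numbered 4428 without the filter and 117 without top cells, and the lower ones 346 under the stricter quality filter, 298 under the stricter rule and 1071 without top cells. Against C1q-high cells, 79 genes were lower under the stricter rule and 94 without cells with dendritic genes.

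The inflammatory list at day 7 had a median of 0.53 as the mean of cells, 0.68 under the stricter rule, 0.61 without the deepest cells and -0.04 under the stricter quality filter, so its sign did not hold. The MHC class II list at day 7 lay at 1.29 after doublet removal, 1.18 without the deepest cells, 0.63 without cells with dendritic genes and 1.29 without top cells, and at day 14 at -2.61 under the stricter rule, -1.92 without cells with dendritic genes and -2.11 without top cells. Without the filter the granule list lay at -0.95 and the cell cycle list at -0.73 at day 7, and the coagulation list at 0.82 at day 14. Without top cells the granule list lay at -0.88 at day 7, and at day 14 the inflammatory list at -1.11 and the type I interferon list at -0.86. The stress list at day 7 was at 0.79 under the stricter rule. The median of all genes moved to -0.23 at day 7 and 0.65 at day 14 without the filter, to -0.20 at day 14 with median-of-ratios scaling and to -0.43 at day 14 without top cells.

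Among single genes, ratios of day 7 to day 3 crossed 1 for Clec10a (0.804) and S100a9 (1.28) under the stricter rule, for S100a9 (1.25) after doublet removal, and for Hba-a1 (3.68) and Hba-a2 (4.73) under the stricter quality filter. At day 14, Hbb-bs (1.5) and Ccl12 (2.06) crossed 1 without top cells, and Ccl12 (2.12) without the deepest cells. The cause was not tested for any of these, except that fewer cells or genes enter by construction.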
